A study of Homo sapiens with 12 samples.

Results

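The genes described here code for 10 secreted cytokines and chemokines of endometrial cells: the IL-6 family members IL6, IL11 and LIF, the interleukin-1 genes IL1A and IL1B, the CXC chemokines CXCL8, CXCL1, CXCL2 and CXCL3, and the CC chemokine CCL2. They were chosen by symbol, and all 10 matched a gene identifier among the 58735 genes of the count table. Their messenger RNA was measured by RNA sequencing of polyA RNA in 12 libraries of human endometrial cells in culture, with 3 libraries in each of 4 groups. HEC-1A is a cancer cell line grown from an endometrial adenocarcinoma with epithelial features, and T-HESC is a stromal fibroblast line that was immortalised with telomerase. The cells received AG-205, a small molecule sold as an inhibitor of the progesterone receptor membrane component PGRMC1, at 15 µM or the vehicle DMSO alone, and RNA was taken after 32 h. The 4 groups are thus HEC-1A DMSO, HEC-1A AG-205, T-HESC DMSO and T-HESC AG-205. Each cell type is represented by 1 line, so that line and cell type cannot be told apart, and the 3 libraries of a group came from separate culture experiments of that line.

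Cytokines of the IL-6 family signal through receptors that share the chain IL6ST (gp130) and activate JAK kinases and STAT3. In the endometrium LIF is known for its role in embryo implantation and IL11 for its role in the decidual response of stromal cells. Interleukin-1 binds IL1R1 and IL1RAP and activates NF-kB, a transcription factor family whose known targets include CXCL8, CXCL1, CXCL2, CXCL3, CCL2, IL6 and IL1B themselves, as well as the feedback inhibitors NFKBIA and TNFAIP3. CXCL8 and the 3 GRO chemokines CXCL1, CXCL2 and CXCL3 attract neutrophils, and CCL2 attracts monocytes.

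Total counts per library ranged from 7168542 to 15178276. The lines expressed the markers of their labels, but not all epithelial markers were confined to HEC-1A. With DMSO all 6 stromal markers, among them COL1A1 and VIM, were higher in T-HESC than in HEC-1A and 5 of 6 epithelial markers were lower. EPCAM stood at 244 ± 12.9 CPM (counts per 1000000 counts of the library after TMM scaling, SD, n = 3) in HEC-1A and 0.333 ± 0.151 in T-HESC. KRT19 was alike in both, at 100.3 ± 3.41 CPM in HEC-1A and 106.3 ± 3.90 in T-HESC. KRT18 stood at 357 ± 30.7 CPM in HEC-1A and still at 155 ± 39.4 in T-HESC. Leukocyte markers summed to between 0.599 and 1.40 CPM over the HEC-1A libraries. Of these markers PTPRC had 18, 17 and 15 counts in T-HESC with DMSO (replicates 1, 2 and 3) and 0 in every HEC-1A library. CD14 reached 18 counts in T-HESC and ITGAM 14 in HEC-1A. CD68, CD3E and LYZ did not exceed 3 counts in any library. Of the endothelial markers, PECAM1, CDH5 and KDR were likewise at no more than 3 counts. VWF reached 14 counts in AG-205 replicate 2 of T-HESC, and TEK stood at 66.4 ± 15.0 CPM in T-HESC with DMSO. In T-HESC the leukocyte sum was 2.496 to 2.79 CPM with DMSO and 0.677 to 1.19 with AG-205, and in HEC-1A the summed epithelial markers were 1299 to 1459 CPM with DMSO and 1983 to 2050 with AG-205. AG-205 replicate 1 of T-HESC stood apart on the first principal component of its line, with a score of 89.3 against -37.9 to 2.77 in the other 5 libraries, and it had the lowest share of mitochondrial counts, 1.70% against 2.00% to 2.67%. On the second component (23.7% of the variance), AG-205 replicate 2 and DMSO replicate 3 of T-HESC scored highest, at 40.6 and 28.6. AG-205 replicate 1 scored 12.7 there, and the remaining T-HESC libraries -33.2 to -21.4.

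With DMSO, the 2 lines made a different set of these messengers. HEC-1A expressed LIF and little else, whereas T-HESC expressed CXCL8, CCL2 and IL11, together with IL1B and a lower level of LIF in some libraries. The plot of CPM in each library shows the value of every library.

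**Figure D1:**
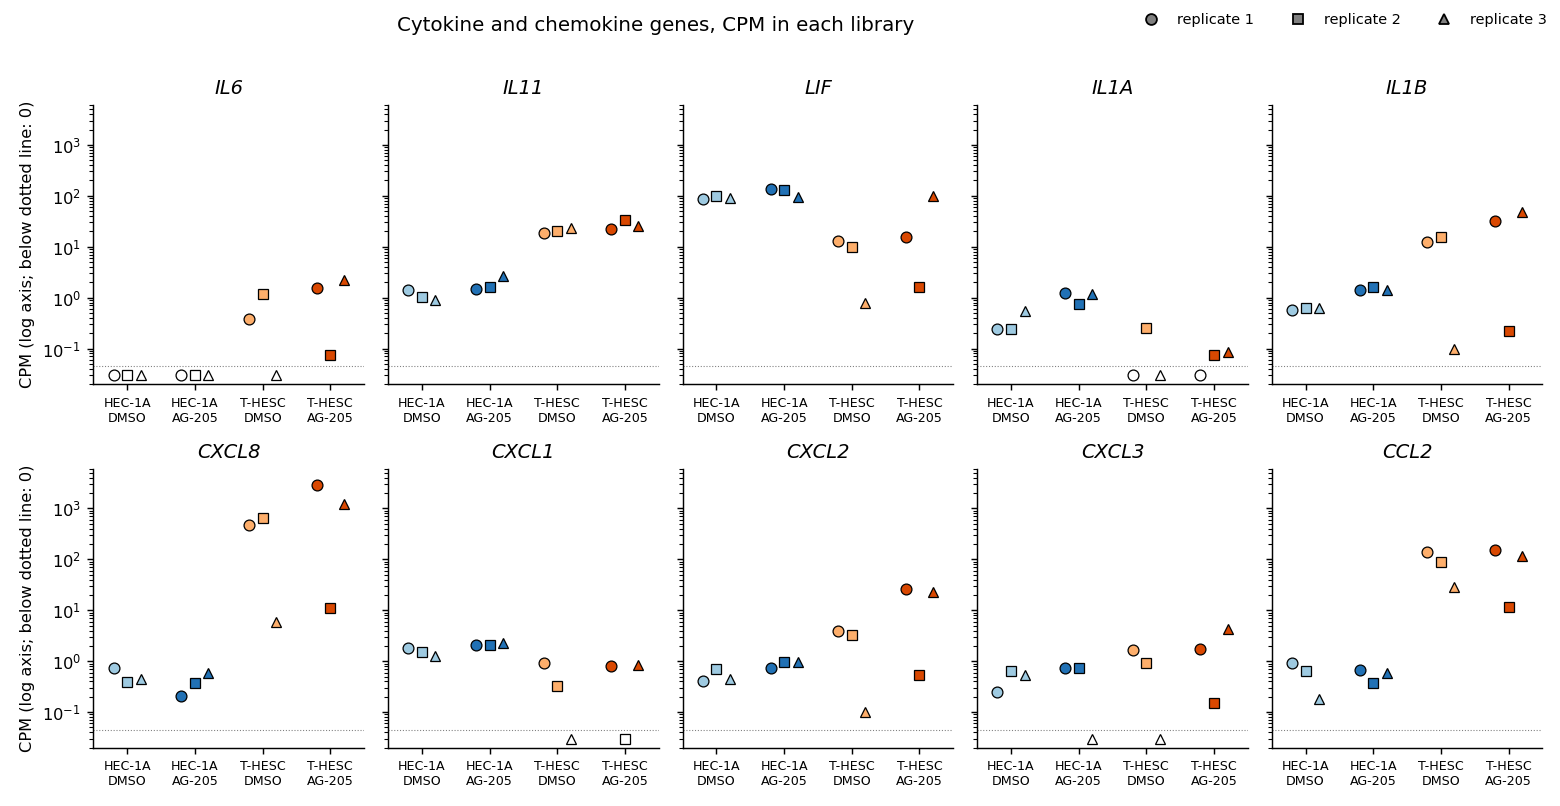
CPM of the 10 genes (log axis, 1 panel per gene) in the 3 libraries of each of the 4 groups; symbols give the replicate number, and open symbols below the dotted line are libraries with a count of 0. In T-HESC, AG-205 replicate 2 (square) and DMSO replicate 3 (triangle) sit below the other libraries of their group for every gene shown except IL11 and IL1A. Counts of IL1A were at most 3 in every T-HESC library.

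Within the IL-6 family, IL6 had a count of 0 in all 6 HEC-1A libraries, which allows at most 0.231 to 0.418 CPM depending on the depth of the library. In T-HESC it reached 5, 14 and 0 counts with DMSO and 17, 1 and 26 counts with AG-205 (replicates 1, 2 and 3, the order used for all triplets below). IL6 was thus close to the detection limit in both lines, and 9.91% of its exon bases overlap the antisense gene IL6-AS1. IL11 stood at 1.40, 1.04 and 0.898 CPM in HEC-1A and at 18.2, 20.3 and 23.2 CPM in T-HESC with DMSO. Its groups lay far apart and its libraries close together. LIF showed the reverse order, with 85.9, 99.3 and 89.3 CPM in HEC-1A and 13.0, 9.70 and 0.799 CPM in T-HESC. Every HEC-1A library was above every T-HESC library, and DMSO replicate 3 of T-HESC was 16.3 times lower than replicate 1. An antisense gene, LIF-AS1, overlaps 2.22% of the exon bases of LIF.

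IL1A, whose product acts largely as an intracellular alarm signal released from damaged cells, was measured with 3, 3 and 6 counts in HEC-1A and with 0, 3 and 0 counts in T-HESC. IL1B, which is secreted after cleavage, stood at 0.576, 0.638 and 0.629 CPM in HEC-1A and at 12.1, 15.2 and 0.0999 CPM in T-HESC with DMSO. The T-HESC libraries fell on both sides of those of HEC-1A, since DMSO replicate 3 held a single count of IL1B and the other T-HESC libraries 161 and 184.

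Of the CXC chemokines, CXCL8 (interleukin-8) was nearly absent from HEC-1A, with 0.740, 0.398 and 0.449 CPM, and was the most abundant member in T-HESC, with 469.9, 638 and 5.79 CPM. DMSO replicate 3 was thus 110.2 times below DMSO replicate 2, although it was still above all HEC-1A libraries. CXCL1 was higher in HEC-1A, at 1.81, 1.51 and 1.26 CPM, than in T-HESC, at 0.904, 0.331 and 0 CPM. CXCL2 stood at 0.411, 0.717 and 0.449 CPM in HEC-1A and at 3.84, 3.23 and 0.0999 CPM in T-HESC. CXCL3 had 3, 8 and 6 counts in HEC-1A and 22, 11 and 0 counts in T-HESC. For both CXCL2 and CXCL3 the lowest T-HESC library was below all those of HEC-1A. The 3 GRO genes are close relatives: in an alignment of the longest transcripts, CXCL1 and CXCL2 were identical at 90.9% of bases, CXCL1 and CXCL3 at 72.6%, and CXCL2 and CXCL3 at 73.8%. No stretch of 100 bases was shared without a difference, and the treatment of reads that match several genes is not given in the sources used here.

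The promoters of the GRO genes are also alike. A RefSeq window of 250 bases before to 50 bases after the transcription start (GRCh38.p14) was at hand for 8 of the 10 genes, and was searched on both strands for an NF-kB type motif (GGGNNNNNCC) and an AP-1 type motif (TGANTCA). The first is loose and occurs in 58.7% of all 35116 windows, the second in 7.71%. CXCL1, CXCL2 and CXCL3 hold the same 10 bases, GGGAATTTCC, at nearly the same distance from the start, and this exact string occurs in 0.145% of all windows. It was singled out after the windows had been read. It is printed here in capitals with 20 bases on either side, in the direction of transcription, to let the GRO promoters be compared with each other and with that of IL6, which has a close variant. The stretches are chr4:73869294-73869343 (plus strand, CXCL1), chr4:74099244-74099293 (minus strand, CXCL2), chr4:74038739-74038788 (minus strand, CXCL3) and chr7:22727107-22727156 (plus strand, IL6), and the capitals begin 79, 78, 79 and 73 bases before the start.
CXCL1: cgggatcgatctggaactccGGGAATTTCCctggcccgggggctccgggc
CXCL2: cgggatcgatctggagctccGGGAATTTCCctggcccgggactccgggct
CXCL3: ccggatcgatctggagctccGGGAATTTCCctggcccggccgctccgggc
IL6: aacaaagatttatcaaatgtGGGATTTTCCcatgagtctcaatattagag

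The AP-1 type motif was found in the windows of CXCL8, IL11 and IL1A. CXCL8 and IL11 are shown because they are the members that varied most and least between T-HESC libraries, as described further on. The capitals mark TGANTCA, which begins 137 bases before the start of CXCL8 (chr4:73740412-73740458, plus strand) and 96 bases before that of IL11 (chr19:55370533-55370579, minus strand). The CXCL8 window also holds a match to the loose NF-kB type motif, 117 bases before the start. Like IL6, it further holds a close variant of the GRO string, TGGAATTTCC. That variant differs in the first base only, and the motif does not match it because it asks for GGG. The IL11 and IL1A windows hold no match to the NF-kB type motif, and that of IL1B holds neither motif. These matches describe letters in a window and not binding.
CXCL8: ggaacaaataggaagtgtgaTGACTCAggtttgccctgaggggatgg
IL11: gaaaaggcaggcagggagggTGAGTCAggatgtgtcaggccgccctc

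CCL2 stood at 0.905, 0.638 and 0.180 CPM in HEC-1A and at 136.5, 90.7 and 28.5 CPM in T-HESC with DMSO. All T-HESC libraries were above all HEC-1A libraries, and DMSO replicate 3 was again the lowest, 4.80 times below replicate 1.

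Levels of different genes can be compared only per length. Per kilobase of exon, LIF ranked first in HEC-1A with DMSO at 23.6 ± 1.80 CPM per kb (SD, n = 3), before CXCL1 at 1.12 ± 0.203 and IL11 at 0.415 ± 0.0965, and these 3 did not overlap. The 6 members that followed, CXCL2, CCL2, CXCL3, CXCL8, IL1B and IL1A, lay between 0.376 and 0.169 CPM per kb, each overlapping with the member before it, IL11 included, and IL6 was at 0. In T-HESC with DMSO the order was CXCL8 at 143 ± 127 CPM per kb, CCL2 at 44.04 ± 28.0, IL11 at 7.68 ± 0.927, IL1B at 3.04 ± 2.66 and LIF at 2.03 ± 1.63. CXCL8 and CCL2 overlapped, because CXCL8 ranged from 2.24 to 247 CPM per kb, and so did IL1B and LIF, whereas IL11 lay below every CCL2 library and above every IL1B library. With the longest transcript in place of all exons, 4 of 10 ranks in HEC-1A and 8 of 10 in T-HESC with DMSO were the same, and LIF in HEC-1A and CXCL8, CCL2 and IL11 in T-HESC kept their places at the top.

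The difference between the lines was tested on the DMSO libraries with edgeR's quasi-likelihood test across 14789 genes. A gene was called when its Benjamini-Hochberg adjusted p was below 0.05 and it changed by more than 1 on the log2 scale in either direction. Of the 10 members, 5 had enough counts to be tested and all 5 were called, 3 higher and 2 lower in T-HESC, against 44.6% of all genes tested (22.3% in each direction). CXCL8 and CCL2 entered the test only through their T-HESC libraries and CXCL1 and LIF only through those of HEC-1A, so that nothing is read from the count of 5. CXCL8 was higher in T-HESC by 9.41 ± 1.72 on the log2 scale (SE, edgeR adjusted p = 0.00108), CCL2 by 7.16 ± 0.734 (adjusted p = 3.00e-05) and IL11 by 4.18 ± 0.212 (adjusted p = 3.57e-07), which is 18.1-fold for IL11. LIF was lower in T-HESC, with a log2 fold change of -3.52 ± 0.572 (edgeR adjusted p = 0.000529), and so was CXCL1, with -1.77 ± 0.623 (adjusted p = 0.0303). The groups did not overlap for these 5 genes, as was the case for 76.6% of all genes tested. The call of CXCL1 was lost without HEC-1A DMSO replicate 1, 2 or 3 or without T-HESC DMSO replicate 2 (edgeR adjusted p of 0.103, 0.0762, 0.0548 and 0.104), and 16 counts in all stand behind its T-HESC value. Its log2 fold change lay between -1.57 and -1.91 in these 4 fits, at -2.997 without T-HESC DMSO replicate 1 and at -1.24 without T-HESC DMSO replicate 3. IL1B and CXCL2 did not enter the test because DMSO replicate 3 of T-HESC held 1 count of each. Without that library they were tested and called higher in T-HESC, by 4.48 ± 0.257 (edgeR adjusted p = 4.01e-13) and 2.74 ± 0.352 (adjusted p = 3.09e-07) on the log2 scale. They were also tested without single HEC-1A DMSO libraries. There IL1B was called without replicate 2 or 3 but not without replicate 1 (log2 fold change 3.82, edgeR adjusted p = 0.0513). CXCL2 was not called without replicate 1, 2 or 3 (edgeR adjusted p of 0.137, 0.0851 and 0.115). In all these fits IL1B and CXCL2 passed the filter only through T-HESC libraries in which they were high. Nothing is therefore read from their calls.

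Among the genes for receptors and antagonists of these ligands, 6 of 12 were tested, and 2 were called, both higher in T-HESC, as were 22.3% of all genes tested (44.6% in either direction): IL11RA, the receptor chain for IL11, by 2.74 ± 0.271 on the log2 scale, and the shared chain IL6ST by 1.23 ± 0.228 (edgeR adjusted p = 2.37e-05 and 0.00116). IL1RN, CXCR1 and CCR2, which code for the interleukin-1 receptor antagonist and for receptors of CXCL8 and CCL2, had a count of 0 in all 12 libraries. In the list of IL-6 family signalling genes, 5 of 10 were called higher in T-HESC and 0 lower, with JAK1 at 4.98 ± 0.121, SOCS1 at 4.88 ± 0.440 and SOCS3 at 3.43 ± 0.297. Of 12 tested NF-kB genes, 3 were called higher in T-HESC, the feedback inhibitor TNFAIP3 (3.12 ± 0.476), TRAF1 (2.93 ± 0.551) and BIRC3 (1.55 ± 0.531), and the subunit gene REL was called lower (-1.06 ± 0.283). Among the other chemokines, CXCL12 was called higher in T-HESC and CX3CL1, CCL20 and CXCL16 lower. The counts of all these lists stand beside 22.3% of all genes called in each direction, and 3 of 12 NF-kB genes is near that share.

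In HEC-1A, 1 of the members was higher with AG-205 past the thresholds. IL1B stood at 0.576, 0.638 and 0.629 CPM with DMSO and at 1.43, 1.63 and 1.44 CPM with AG-205, which is 7, 8 and 7 counts against 21, 22 and 12. The groups did not overlap, and IL1B was higher by 1.28 ± 0.312 on the log2 scale (SE; 2.43-fold; edgeR adjusted p = 0.0203). That makes 1 of 4 tested members called, against 2.78% of all 14122 genes tested, or 2.58% higher with AG-205. IL1B passed the filter on low counts only through its AG-205 libraries, so that nothing is read from this share. The call rests on few counts: it was lost without AG-205 replicate 1 or 2 or without any 1 DMSO library (edgeR adjusted p from 0.0524 to 0.0870), with DESeq2 (adjusted p = 0.0992) and in a fit of all 12 libraries (edgeR adjusted p = 0.981), in which the spread of IL1B in T-HESC enters the error. The log2 fold change stayed between 1.22 and 1.32 without single libraries, and 7 of 14 other fits kept the call.

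The other 3 members tested in HEC-1A had positive log2 fold changes that did not pass. LIF stood at 85.9, 99.3 and 89.3 CPM with DMSO and at 133, 130.1 and 94.9 CPM with AG-205. Its groups overlapped, since AG-205 replicate 3, the shallowest library, lay below the highest DMSO library, and the log2 fold change was 0.39 ± 0.123 (edgeR adjusted p = 0.0623). The adjusted p of LIF was 0.0456 with DESeq2, and in edgeR 0.0483 with upper-quartile scaling and 0.00943 without the filter on low counts. It was 0.000332 with library quality weights (limma) and 8.99e-06 (edgeR) without AG-205 replicate 3, where the log2 fold change was 0.515 ± 0.0781. Without any other single library it was 0.103 to 0.216 (edgeR). LIF stayed under the fold limit throughout. IL11 gave 1.40, 1.04 and 0.898 CPM with DMSO against 1.502, 1.63 and 2.64 CPM with AG-205, a log2 fold change of 0.72 ± 0.323 (edgeR adjusted p = 0.181). CXCL1 gave 1.81, 1.51 and 1.26 CPM against 2.05, 2.07 and 2.28 CPM, a log2 fold change of 0.46 ± 0.255 (edgeR adjusted p = 0.278). The groups did not overlap for 3 of the 4 tested members, with AG-205 above DMSO each time, and for 31.4% of all genes tested. At an unadjusted p under 0.05 (edgeR) were 3 of the 4, IL1B among them, and 26.2% of all genes tested.

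IL1A had too few counts for the test in HEC-1A, with 3, 3 and 6 counts with DMSO and 18, 10 and 10 with AG-205. In CPM these were 0.247, 0.239 and 0.539 against 1.23, 0.739 and 1.20, and the groups did not overlap. Without the filter on low counts it was called, with a log2 fold change of 1.61 ± 0.495 (edgeR adjusted p = 0.0225), next to IL1B. The share of all genes called without the filter is not given here, so that nothing is read from this call. CXCL2 had 5, 9 and 5 counts with DMSO and 11, 13 and 8 with AG-205, and its CPM did not overlap either, whereas CXCL8, CXCL3 and CCL2, with at most 11 counts in any HEC-1A library, did. CXCL3 was measured with 11, 10 and 0 counts with AG-205, so that replicate 3 held none. IL6 was at 0 in every library.

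Around these ligands, few genes of the lists were called with AG-205 in HEC-1A. CCL20, a chemokine of epithelial cells, was higher by 1.65 ± 0.342 on the log2 scale (edgeR adjusted p = 0.00868), at 0.999 ± 0.216 CPM with DMSO and 3.30 ± 1.29 with AG-205 (SD, n = 3), the only call among 3 tested other chemokines. ZFP36, which codes for tristetraprolin, a protein that destabilises cytokine messengers with AU-rich elements, was higher by 1.06 ± 0.162 (adjusted p = 0.00123), the only call among 7 decay genes. Most of that list went the other way: 4 of the 7 were lower and 1 higher at an unadjusted p under 0.05 (edgeR), with a median log2 fold change of -0.207. TNFAIP2 was lower, with -1.05 ± 0.109 (adjusted p = 5.70e-05), the only call among 12 tested NF-kB genes, whose median log2 fold change was 0.05 beside 0.01 for all genes. None of the 6 receptor genes, 5 other cytokines and 9 IL-6 family signalling genes tested was called, with 2, 4 and 2 of them at an unadjusted p under 0.05 (edgeR), as were 26.2% of all genes tested; IL18 had a log2 fold change of 0.61 ± 0.141.

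**Figure D2:**
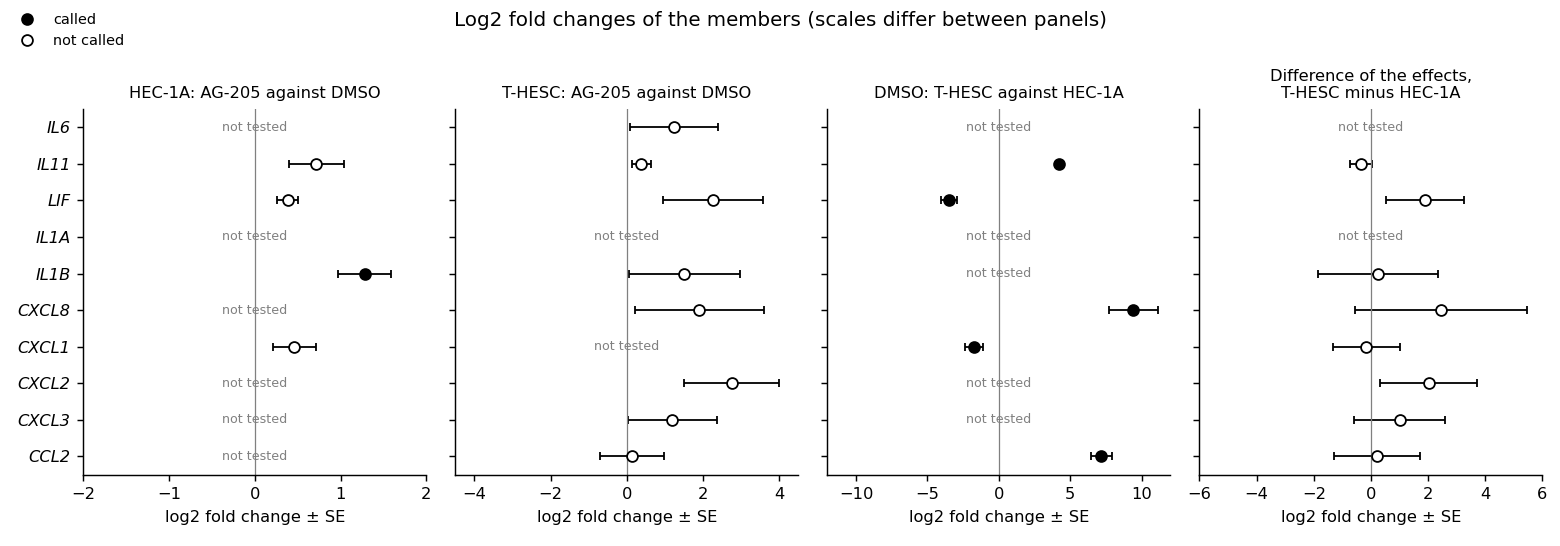
Log2 fold change of each member with its SE (edgeR's quasi-likelihood test) in the 4 comparisons; the scales of the x axes differ. Filled points were called, that is 1 member in HEC-1A, 0 in T-HESC, 5 between the lines and 0 for the difference of the effects; members with too few counts are marked as not tested.

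In T-HESC, 8 members were tested for AG-205 and 0 were called, with 0 of them at an unadjusted p under 0.05, against 0.08% called and 5.38% at that unadjusted p among all 13753 genes tested (edgeR). The groups overlapped for all 8, whereas 11% of all genes tested did not overlap. All 8 log2 fold changes were above 0, with a median of 1.37 beside 0.02 for all genes, but their standard errors were large. DESeq2 also called 0 of the members. Without the filter on low counts CXCL2, LIF and CXCL8 were called, with similar log2 fold changes and smaller standard errors. The share of all genes called in that unfiltered fit is not given here, so that nothing is read from these calls.

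In each group 1 library was far below the other 2. CXCL8 stood at 469.9, 638 and 5.79 CPM with DMSO and at 2949.7, 10.9 and 1208 CPM with AG-205. The AG-205 libraries 1 and 3 were above all DMSO libraries, and AG-205 replicate 2 was below DMSO replicates 1 and 2; the lowest and highest of the 6 libraries were 58 and 32252 counts. This gave a log2 fold change of 1.90 ± 1.69 (SE) with an edgeR adjusted p of 0.993. CXCL2 gave 3.84, 3.23 and 0.0999 CPM with DMSO and 26.0, 0.527 and 23.2 CPM with AG-205, a log2 fold change of 2.75 ± 1.25 (unadjusted p = 0.0595, edgeR adjusted p = 0.961), the largest of the 8. IL1B gave 12.1, 15.2 and 0.0999 CPM with DMSO and 31.5, 0.226 and 48.3 CPM with AG-205, a log2 fold change of 1.51 ± 1.45. The same 2 libraries, DMSO replicate 3 and AG-205 replicate 2, were the low ones for all 3 genes.

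LIF followed with 13.0, 9.70 and 0.799 CPM with DMSO and 15.2, 1.58 and 98.7 CPM with AG-205, a log2 fold change of 2.26 ± 1.31. Its mean with AG-205 was set by replicate 3, without which the log2 fold change was 0.06 ± 1.14. CCL2 gave 136.5, 90.7 and 28.5 CPM with DMSO and 150.4, 11.8 and 119 CPM with AG-205, a log2 fold change of 0.13 ± 0.841. CXCL3, at 1.66, 0.912 and 0 CPM with DMSO and 1.74, 0.150 and 4.33 CPM with AG-205, and IL6, with the counts given above, had log2 fold changes of 1.20 ± 1.16 and 1.24 ± 1.15. CXCL1 was too low to be tested, with 12, 4 and 0 counts with DMSO and 9, 0 and 10 with AG-205, and was at 0 in the same 2 libraries. IL1A did not exceed 3 counts.

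IL11 was the exception. It stood at 18.2, 20.3 and 23.2 CPM with DMSO and at 22.5, 33.6 and 25.0 CPM with AG-205, with a log2 fold change of 0.38 ± 0.241 (edgeR adjusted p = 0.993). Here DMSO replicate 3 and AG-205 replicate 2 were the highest of their groups, and the libraries of a group stayed within 1.49 times of each other.

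**Figure D3:**
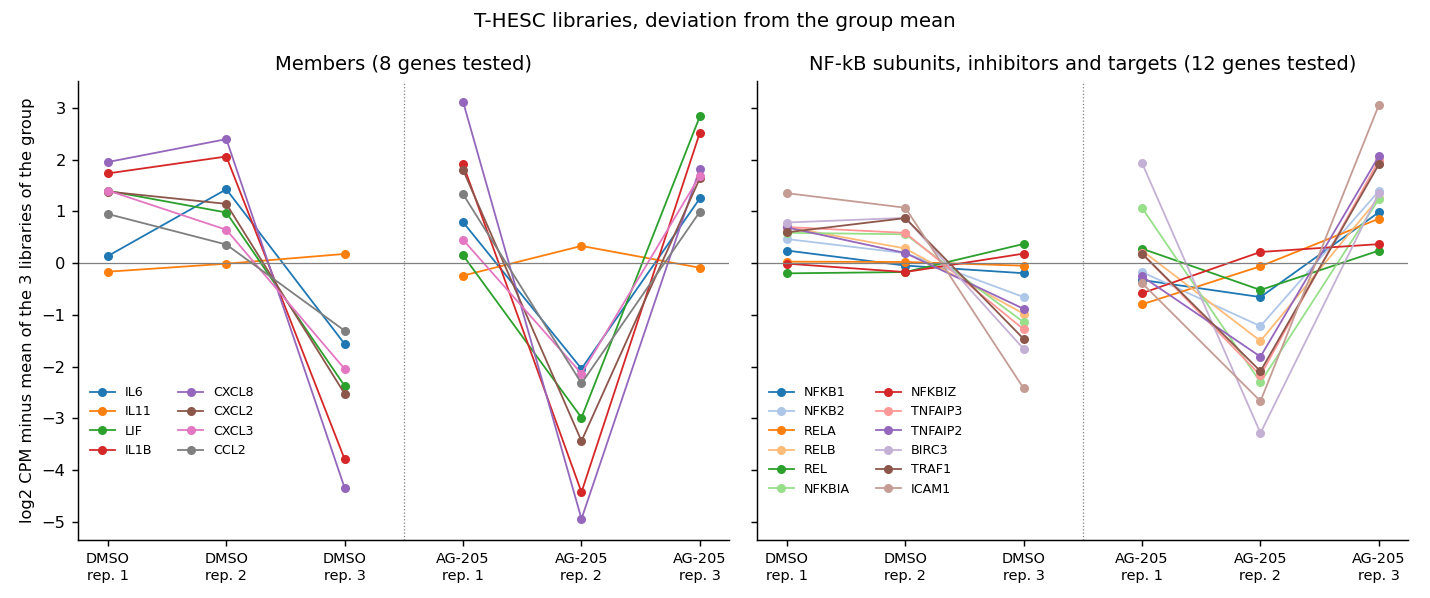
Log2 CPM of each T-HESC library (prior count of 2) minus the mean of the 3 libraries of its group, for the 8 tested members (left) and the 12 tested NF-kB genes (right); each line joins the values of 1 gene. DMSO replicate 3 and AG-205 replicate 2 lie below the other libraries of their group for 7 of 8 members, down to -4.35 and -4.94 for CXCL8, and for 9 of 12 NF-kB genes. Both were the lowest of their group for 17% of all genes tested in T-HESC.

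The extent of this split was described over all 13753 genes tested in T-HESC, with no test, since the 2 libraries were noted after their values had been seen. AG-205 replicate 2 and DMSO replicate 3 were both the lowest of their group for 7 of 8 tested members (87.5%) and for 17% of all genes. For 6 of 8 members (75%) both were also more than 4-fold below the other 2 libraries of their group, as they were for 0.509% of all genes. The spread within groups, as the SD of log2 CPM, lay at the percentiles 100, 100, 99.9, 99.9, 99.6, 98.8 and 97.4 of all genes tested for CXCL8, IL1B, LIF, CXCL2, CCL2, CXCL3 and IL6, and at 22.7 for IL11. In HEC-1A the percentiles of the 4 tested members were 85.2 for IL11, 66.1 for LIF, 44.6 for CXCL1 and 6.22 for IL1B.

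The same 2 libraries were the lowest for 9 of 12 NF-kB genes, for 6 of 8 other cytokines, for 1 of 3 other chemokines and for 1 of 6 receptor genes tested, beside 17% of all genes tested. These lists were chosen with earlier results of these data known, so that the counts are a description and no independent support. NFKBIA, the inhibitor that NF-kB induces against itself, stood at 166, 163 and 50.03 CPM with DMSO and 391, 37.7 and 440.6 CPM with AG-205, and the adhesion molecule gene ICAM1 at 178, 147 and 12.9 CPM and 93.5, 19.1 and 1018 CPM. CCL5, which attracts T cells, stood at 7.15, 9.78 and 0 CPM with DMSO and 23.0, 0 and 25.3 CPM with AG-205. Not all genes of the pathway moved in this way: the subunit gene RELA had 120.0, 119.5 and 114 CPM with DMSO and 62.0, 103 and 195 CPM with AG-205. IL6ST went the other way, with 127, 132 and 234 CPM with DMSO and 157, 246 and 161 CPM with AG-205. NFKBIA, RELA and this direction of IL6ST are mentioned after their values were seen.

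The second principal component over all genes tested in T-HESC set both of these libraries apart, with the scores given above. Depth and mitochondrial share did not. AG-205 replicate 2 had the highest mitochondrial share of T-HESC, 2.67%, but DMSO replicate 3, at 2.24%, lay between the other DMSO libraries at 2.22% and 2.31%. DMSO replicate 3 was the shallowest T-HESC library, with 11440359 counts, and AG-205 replicate 2, with 14631822, the second deepest. The summed leukocyte markers were the lowest of the group in both, at 2.496 CPM against 2.57 and 2.79 with DMSO and at 0.677 CPM against 1.10 and 1.19 with AG-205, as were the epithelial markers, at 238 CPM against 309 and 342 with DMSO and at 221 CPM against 312 and 387 with AG-205. The summed stromal markers stood at 26549, 21285 and 16977 CPM with DMSO and at 12820, 12649 and 20251 CPM with AG-205, and AG-205 replicate 2 was the lowest of its group for 0 of the 6. Their part in the result was not tested. In bulk RNA, fewer cells that express a gene and less RNA of that gene in each cell cannot be told apart.

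Leaving out single T-HESC libraries moved the sizes but gave 0 called members each time. Without AG-205 replicate 2 the log2 fold changes were 2.46 ± 1.36 for CXCL8, 3.30 ± 0.859 for CXCL2, 2.81 ± 1.05 for LIF, 2.08 ± 1.11 for IL1B and 0.63 ± 0.576 for CCL2 (SE; edgeR adjusted p from 0.730 to 0.943). Without DMSO replicate 3 they were 1.31 ± 1.55, 2.20 ± 1.24, 1.73 ± 1.35, 0.94 ± 1.34 and -0.29 ± 0.860. Without AG-205 replicate 1, the library that stood apart on the first component, they were 0.68 ± 1.69, 2.24 ± 1.25, 2.62 ± 1.31, 1.35 ± 1.496 and -0.42 ± 0.877. Without AG-205 replicate 3 they were 1.98 ± 1.98, 2.42 ± 1.42, 0.06 ± 1.14, 0.76 ± 1.66 and -0.09 ± 1.004, with 0.57 ± 1.37 for IL6 and 0.06 ± 1.33 for CXCL3. CXCL2 kept a log2 fold change of at least 2.20 in these fits, and CCL2 took either sign. Weights for library quality (limma) turned 7 of the 8 log2 fold changes negative, down to -3.46 for IL1B and -3.36 for CXCL8, with 0 members called. They gave AG-205 replicate 2 a weight of 2.03, AG-205 replicates 1 and 3 weights of 0.159 and 0.502, and DMSO replicates 1, 2 and 3 weights of 2.19, 3.98 and 0.710, so that the AG-205 library with the least of these messengers counted most.

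**Figure D4:**
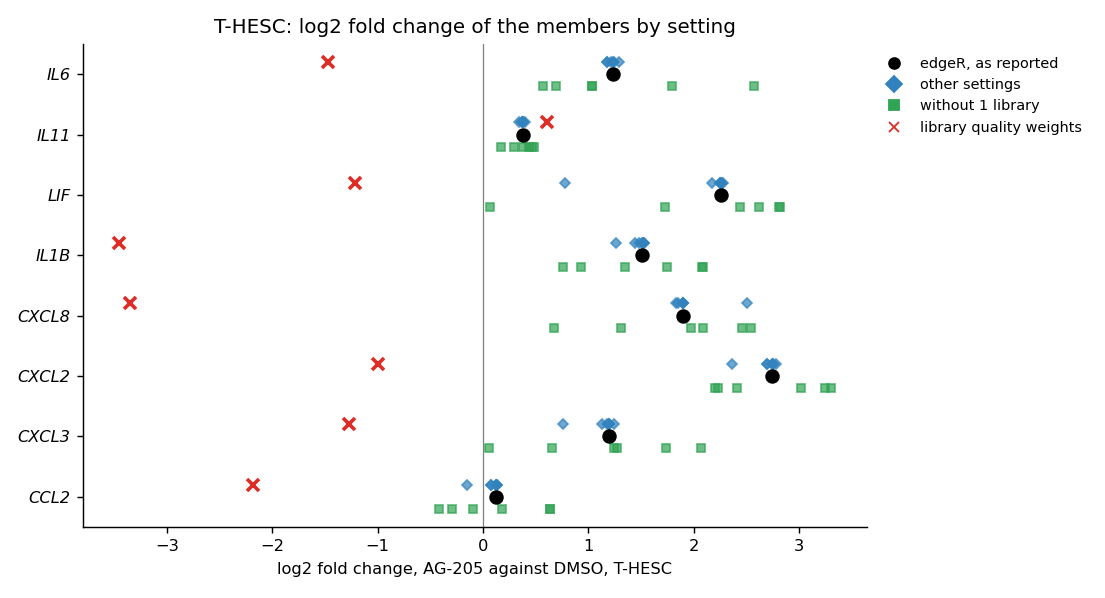
Log2 fold change of the 8 tested members in T-HESC (AG-205 against DMSO) as reported (black), under other settings (blue), without 1 library (green) and with library quality weights (red). The weights put 7 of 8 members below 0, whereas IL11 lies between 0.17 and 0.61 in all settings shown.

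No list held a call in T-HESC: 0 of 6 receptor genes, 0 of 12 NF-kB genes, 0 of 10 IL-6 family signalling genes, 0 of 7 decay genes, 0 of 8 other cytokines and 0 of 3 other chemokines were called (edgeR), with 1, 1, 0, 1, 0 and 0 at an unadjusted p under 0.05. The 12 NF-kB genes all had log2 fold changes above 0, with a median of 0.99. ICAM1 had the largest, 1.71 ± 1.34, and TNFAIP2, called lower in HEC-1A, had 1.00 ± 0.864.

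Whether the effect of AG-205 differed between the lines was tested as an interaction in a fit of all 12 libraries over 16132 genes, of which 0.174% were called. Of the 8 members tested, 0 were called (edgeR), with 0 at an unadjusted p under 0.05 (6.35% of all genes), and DESeq2 called 0 as well. The difference, T-HESC minus HEC-1A, was 2.44 ± 3.01 on the log2 scale for CXCL8, 2.02 ± 1.69 for CXCL2, 1.89 ± 1.38 for LIF, 0.25 ± 2.09 for IL1B and -0.34 ± 0.377 for IL11 (SE; edgeR adjusted p from 0.938 to 1). The call of IL1B in HEC-1A and its absence in T-HESC therefore do not show a difference between the lines. IL6 and IL1A were left out because 1 line was at no more than 3 counts.

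The genes whose log2 CPM over the 12 libraries, each centred on its own mean, came closest to the 4 most abundant members were found by the root mean square difference among 16132 genes. For CXCL8 these were SLC14A1 (1.51), PTX3 (1.59), which codes for the secreted pattern recognition protein pentraxin 3, and C11orf96 (1.65), to be read against the root mean square of 4.85 of CXCL8 itself. PTX3 stood at 217, 159 and 68.3 CPM in T-HESC with DMSO and at 504, 37.5 and 494 CPM with AG-205, and at no more than 0.329 CPM in HEC-1A. For CCL2 they were RGCC (0.587), TMEM130 (0.593) and EPSTI1 (0.599), for LIF CMPK2 (0.588), ANO9 (0.858) and SLC12A7 (0.872), and for IL11 SHC4 (0.234), ENSG00000257732 (0.268) and TRIM7 (0.273). The points share libraries and the difference between the lines, so that any gene specific to a line comes near to a member of that line.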

How the data were processed

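RNA of 12 cultures was sequenced. The authors selected polyA RNA, cleaned the reads with Trimmomatic 0.38, placed them on GRCh38 with HISAT2 2.1.0, assigned them to genes with featureCounts (Subread 2.0.0) and deposited raw counts of 58735 genes, of which 23756 were at 0 throughout. The strand setting and the handling of reads with several matches are not given in the sources used here. Between libraries of 1 group, chi-square per degree of freedom over genes was 1.79 to 207 in 12 pairs, and none was a copy of another.

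For each comparison all genes were fitted with edgeR 4.0.16 in R 4.3.3 (TMM scaling, filterByExpr, quasi-likelihood test), and p values were adjusted by Benjamini-Hochberg over the genes tested. Calls needed an adjusted p below 0.05 with a log2 change of more than 1 either way. The SE was derived from the F value. CPM were scaled by TMM over the 12 libraries. A gene with at most 3 counts throughout a group was taken as at the floor, and limits from counts cover counting error only. The scripts recovered known changes in simulated counts that varied independently between genes. The simulation held no library that was low for many related genes at once, as seen in T-HESC, and shows nothing about that setting. Gene lengths and overlaps came from GENCODE 44 and promoter windows from RefSeq (GRCh38.p14). The members and the 10 other lists were chosen with earlier results of these data known. The members were always named, and from each other list at most 4 genes: those called, by size, or else the 2 with the highest CPM. SOD2, listed among the NF-kB genes, could not be matched. Alternatives were DESeq2 1.42.0, which the study used in an earlier version, RLE and upper-quartile scaling, 2 other filters on low counts, a replicate block, library quality weights (limma 3.58.1), other thresholds, a fit of all 12 libraries and leaving out single libraries. Figures were drawn with matplotlib 3.10.9.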

Additional observations from a re-analysis of the deposited data

How the results depend on the processing

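The 5 calls between the lines were the most stable: CXCL8, CCL2, IL11 and LIF were called in all 13 alternatives run and CXCL1 in 9. Of 185 log2 fold changes of members recomputed with all libraries, 161 kept their direction and their side of the threshold, 2 lost a call, 5 gained one and 17 changed sign. The members called in HEC-1A were 0 with DESeq2, at an adjusted p under 0.01 or in the fit of all 12 libraries, and 0 to 1 without single libraries. Without the filter on low counts they were 2 in HEC-1A, 3 in T-HESC, 8 between the lines and 2 for the difference of the effects. The share of all genes called in those unfiltered fits is not given here, so that nothing is read from these counts. In T-HESC the log2 fold changes without the filter stayed near those with it, and the standard errors were smaller. They were 2.70 ± 0.450 against 2.75 ± 1.25 for CXCL2 and 2.25 ± 0.413 against 2.26 ± 1.31 for LIF. For CXCL8 they were 1.83 ± 0.456 against 1.90 ± 1.69. The adjusted p (edgeR) without the filter was 6.58e-06 for CXCL2, 8.71e-05 for LIF and 0.0168 for CXCL8. The cause of the smaller standard errors was not tested.

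Over all genes, 1643 were called in HEC-1A with no fold limit and 141 in the fit of all 12 libraries. In T-HESC 128 were called with DESeq2, 181 without the filter, 333 with quality weights, 0 at an adjusted p under 0.01, 160 in the fit of all 12 libraries, and 0 to 72 without single libraries, with 72 without AG-205 replicate 1. Between the lines 10664 were called with no fold limit, and for the difference of the effects 90 with DESeq2, 141 without the filter, 380 with quality weights, 4 at an adjusted p under 0.01 and 4 to 80 without single libraries.

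With quality weights the log2 fold change in T-HESC was -1.47 for IL6, -1.22 for LIF, -3.46 for IL1B, -3.36 for CXCL8, -1.001 for CXCL2, -1.27 for CXCL3 and -2.18 for CCL2, and the difference of the effects was 0.015 for IL11, -1.54 for LIF, -4.47 for IL1B, -2.49 for CXCL8, -1.51 for CXCL2, -1.30 for CXCL3 and -2.35 for CCL2. Without single libraries CCL2 ranged from -0.42 to 0.63 in T-HESC, and the difference from -0.34 to 2.46 for LIF, -0.51 to 0.82 for IL1B, -0.67 to 1.08 for CXCL1, -0.16 to 1.88 for CXCL3 and -0.30 to 0.74 for CCL2.

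Replicate numbers were not taken to pair libraries: deviations of same-numbered libraries correlated over genes at -0.08, 0.23 and 0.00 in HEC-1A and at 0.22, -0.53 and -0.04 in T-HESC. As a hint from the data and not the design, 1 of the 6 AG-205 libraries, HEC-1A replicate 2, correlated best with the DMSO library of its own number; in T-HESC, AG-205 replicate 2 did so with DMSO replicate 3 (0.69), AG-205 replicate 1 with DMSO replicate 2 (0.44) and AG-205 replicate 3 with DMSO replicate 1 (0.18). With the replicate block, CCL2 in T-HESC was -0.15 and LIF 0.77, the difference of the effects was 0.49 for LIF, -0.060 for IL1B and -0.035 for CCL2, and 0 genes were called for that difference; no call of a member changed. Depth limited IL6, IL1A, CXCL1 and CXCL3, with at most 51 counts in any library.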
